A study of Arabidopsis thaliana with 6 samples.

Results

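AGL42 (AT5G62165), AGL71 (AT5G51870) and AGL72 (AT5G51860) are 3 MADS-box genes of the SOC1 clade of Arabidopsis thaliana. They were chosen by gene, and with their level against the array background and their difference between the genotypes already known, so both are given here as descriptions without a test. Each had 1 probe set annotated to it alone, and they are 3 of 13356 genes with such a probe set. On the deposited values AGL42 read above the background controls on each SPT4-R3 array and below their highest value on each wild-type array, whereas AGL71 and AGL72 read near the background controls in both genotypes.

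The plants studied were SPT4-R3, line 3 of plants with RNA interference against SPT4, and the plants they were set against were wild type. Both are in the Columbia-0 background, and no other allele or agent is given in the labels. SPT4-R3 is a single line, and the promoter that drives its RNA interference construct is not named in the labels. Seedlings were kept for 2 days in the cold and then grown on agar plates for 10 days with 16 h of light and 8 h of dark, and the parts above ground were collected 2 h after lights on. Total RNA from 3 samples per genotype, called biological replicates in the labels, was hybridised to 1 single-colour ATH1 array each. Nothing in the labels says whether the samples came from separate sowings, so each p-value reflects the spread among these 6 samples, which may be technical.

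MADS-domain proteins are transcription factors that bind DNA as dimers and larger complexes. SOC1 gathers signals from day length, temperature, age and gibberellin in the shoot apex and promotes the switch to flowering. AGL42, AGL71 and AGL72 are its close relatives and promote flowering at shoot apical and axillary meristems, in part through gibberellin. AGL42 is also called FOREVER YOUNG FLOWER, since it delays the ageing and shedding of floral organs, and it is known in roots as a marker of the quiescent centre. SPT4 forms with SPT5 a factor that travels with RNA polymerase II during transcript elongation.

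The 6 arrays had medians of 6.52 to 6.53 in SPT4-R3 and 6.49 to 6.53 in wild type on the deposited log2 scale. SPT4-1 (AT5G08565), the SPT4 gene with a probe set of its own, read 5.0, 4.89 and 4.97 in SPT4-R3, against 5.79, 6.05 and 6.03 in wild type, and the genotypes did not overlap. It fell by 1.0 ± 0.0753 on the log2 scale (SE, n = 3 per genotype, limma adjusted p = 2.16e-06). The trp control probe sets, which match a bacterial gene, served as the array background. Their 3 probe sets ranged from 3.46 to 3.84 over the 6 arrays, and between 7.51% and 11.1% of the plant probe sets on an array read no higher than the highest of them. No detection call was used, so a value above the trp range is not by itself a detected transcript.

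AGL42 read 4.05, 4.14 and 4.0 on the SPT4-R3 arrays, against 3.53, 3.42 and 3.32 on the wild-type arrays. All 3 SPT4-R3 values lay above all 3 wild-type values. The means were 4.06 ± 0.0710 in SPT4-R3 and 3.42 ± 0.105 in wild type (SD, n = 3 each), a difference of 0.64 ± 0.0675 (SE of the limma fit), or 1.56-fold. Set against the highest trp probe set on the same array, AGL42 stood 0.21, 0.34 and 0.26 higher in SPT4-R3 and differed by -0.20, -0.30 and -0.39 in wild type. The wild-type signal was thus no higher than that of the background controls. The 1.56-fold is therefore a ratio of array signals and no measure of the change in transcript. Even in SPT4-R3 the signal was dim, with 16.2%, 18.9% and 15.2% of the plant probe sets below it, against 3.33%, 1.92% and 0.941% in wild type. A larger share of cells with the transcript and more transcript per cell cannot be told apart in such whole-tissue samples. AGL42 did not reach the lower quartiles of the arrays, 4.41 to 4.42 in SPT4-R3 and 4.41 to 4.44 in wild type.

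AGL71 read 3.77 on each of the 3 SPT4-R3 arrays, against 3.65, 3.79 and 3.91 on the wild-type arrays. The SPT4-R3 values fell inside the wild-type spread, and the only value above the whole trp range was that of wild-type replicate 3. The means were 3.77 ± 0 in SPT4-R3 and 3.78 ± 0.130 in wild type (SD, n = 3 each), a difference of -0.01 ± 0.0684 (SE). The SD of 0 was computed on values deposited with 2 decimals and does not show that the transcript level was without variation. Why the 3 values were the same was not tested.

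AGL72 read 3.49, 3.38 and 3.48 in SPT4-R3, against 3.55, 3.43 and 3.36 in wild type. The genotypes overlapped and all 6 values lay below the highest trp probe set of their own array, by 0.18 to 0.42. The means were 3.45 ± 0.0608 in SPT4-R3 and 3.45 ± 0.0961 in wild type (SD, n = 3 each), a difference of 0.003 ± 0.0642 (SE). A signal in this range gives no measure of how much transcript was present, so for AGL71 and AGL72 a change below the background of the arrays would not have been detectable.

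Among wild-type arrays AGL42 and AGL72 were both highest in replicate 1 and lowest in replicate 3, and AGL71 was lowest in replicate 1 and highest in replicate 3. With 3 arrays this is a description of those arrays only. In SPT4-R3 the 3 genes shared no such order, since AGL42 was highest and AGL72 lowest in replicate 2 and AGL71 did not vary. The genotype difference of AGL42 exceeded that of AGL71 by 0.65 and that of AGL72 by 0.64 on the log2 scale. A scaling that shifts all probe sets of an array alike leaves both of these gaps as they are.

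**Figure D1:**
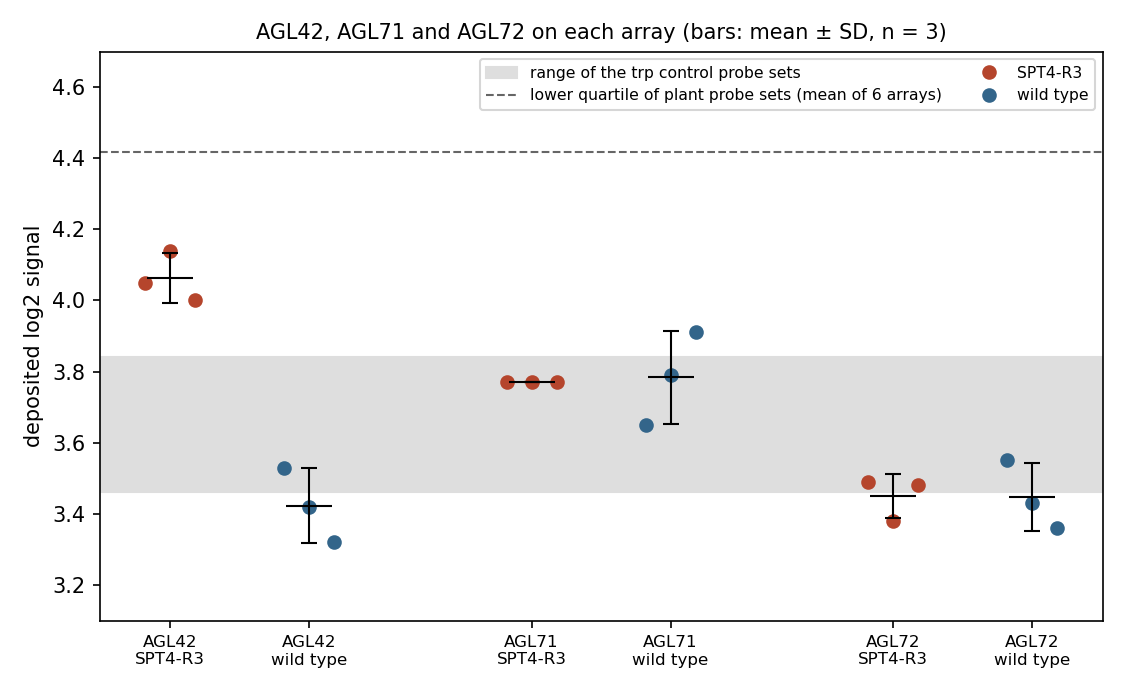
Deposited log2 signals (vertical axis) of AGL42, AGL71 and AGL72 on the 3 SPT4-R3 and 3 wild-type arrays. Points are arrays, bars are the mean ± SD, the grey band spans the trp controls (3.46 to 3.84) and the dashed line is the mean lower quartile of the plant probe sets. The 3 SPT4-R3 values of AGL42 (4.0 to 4.14) are above the band, while AGL71 and AGL72 lie in or below it apart from 1 wild-type value of AGL71.

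1 of the 3 genes, AGL42, had genotypes that did not overlap. Over all 22746 plant probe sets 55.1% did not overlap, and 49.9% passed an adjusted p of 0.05 in limma. The share with no overlap and SPT4-R3 higher was 28.9%, and the calls were 26.4% higher and 23.5% lower, so separation of the genotypes was common on these arrays. The hybridisation controls for bioB, bioC and bioD, bacterial transcripts normally added in a fixed amount, averaged 8.62 ± 0.114 in SPT4-R3 and 9.01 ± 0.0302 in wild type (SD, n = 3 each), while the trp controls averaged 3.61 ± 0.0334 in SPT4-R3 and 3.62 ± 0.0296 in wild type. When the arrays were centred on these hybridisation controls, the median difference over the plant probe sets became 0.39, against -0.003 on the deposited scale. This centring gave differences of 1.03 for AGL42, 0.38 for AGL71 and 0.40 for AGL72, so that AGL71 and AGL72 stayed with the median and AGL42 was 0.64 above it. The directions given here are those of the deposited scale.

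Few probe sets as dim as AGL42 in wild type stood clear of the trp range in SPT4-R3. In wild type 1981 plant probe sets, 8.71% of the total, read at or below the highest trp value of 3.84 on all 3 arrays, and AGL42 and AGL72 were among them. AGL42 was 1 of 42 of these, or 2.12%, that read above 3.84 on all 3 SPT4-R3 arrays. The median difference of the 1981 probe sets was -0.01, with quartiles of -0.06 and 0.04. A difference at least as large as that of AGL42 was found for 11 of them (0.555%), AGL42 included, and for 1489 (6.55%) of all plant probe sets. Because AGL42 was chosen for this pattern, these shares describe its place among the probe sets and are no test of it.

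**Figure D2:**
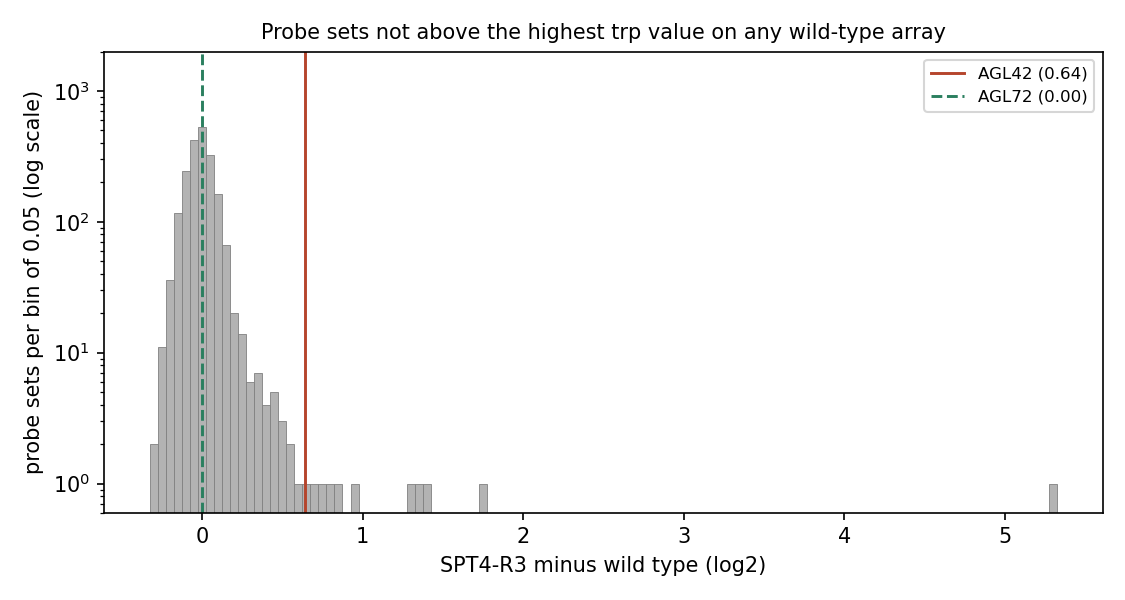
Differences of SPT4-R3 minus wild type (log2, horizontal axis) for the 1981 probe sets that read at or below 3.84 on all 3 wild-type arrays, as counts per bin on a log axis. The solid line marks AGL42 at 0.64, which 11 probe sets including AGL42 reach or pass, and the dashed line marks AGL72 at 0.003 beside the median of -0.01. AGL71 is not in this set because 1 wild-type value was 3.91.

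The profile of AGL42 over the 6 arrays was set against 1573 other probe sets whose gene has a symbol. Likeness was measured as the root mean square difference of the log2 values after each profile was centred on its own mean, so the level of a gene played no part. The 5 most alike were PDF1.4 (AT1G19610), a defensin-like gene, at 0.0309, UNG (AT3G18630), a uracil DNA glycosylase, at 0.0398, CHI (AT2G43570), a chitinase gene, at 0.0482, ANK1 (AT5G02620), which encodes an ankyrin-repeat protein, at 0.05, and UBP24 (AT4G30890), a ubiquitin-specific protease, at 0.0531. PDF1.4 read 5.97, 6.07 and 5.97 in SPT4-R3, against 5.41, 5.34 and 5.20 in wild type. UBP24 read 9.28, 9.29 and 9.18 in SPT4-R3, against 8.66, 8.60 and 8.61 in wild type. Like AGL42, both were highest in SPT4-R3 replicate 2 and in wild-type replicate 1, for UBP24 in SPT4-R3 by only 9.29 against 9.28. The 5 genes were picked for their likeness to AGL42, so similar orders and differences follow from the choice. The differences of these 5 genes between the genotypes ran from 0.59 to 0.69, and all 5 read above the trp range in both genotypes. AGL71 and AGL72 had no mean above the trp range in either genotype, and no profiles were matched to them.

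The other measured genes of flowering did not share 1 direction. 5 lists held 112 genes besides AGL42, AGL71 and AGL72, namely the rest of the SOC1 clade, other type II MADS genes, flowering signals, regulators of the repressor gene FLC, and gibberellin genes. Of these, 21 had a single-gene probe set, of which 4 rose, 4 fell and 13 did not pass the test. That is 38.1% called, against 49.9% of all probe sets, and the median difference was -0.02 against -0.003. SOC1, FLC, FT and LFY were not analysed here.

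In the SOC1 clade AGL19 (AT4G22950), a promoter of flowering that responds to prolonged cold, was the only other gene measured. It read 3.75, 3.80 and 3.66 in SPT4-R3, against 3.75, 3.72 and 3.68 in wild type, all within the trp range. It did not pass the test (difference 0.02 ± 0.0566, SE, limma adjusted p = 0.801). AGL42 was therefore the only 1 of 4 measured clade members with a signal above the trp range on all arrays of a genotype.

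Of 10 other type II MADS genes 2 rose, 2 fell and 6 did not pass, with a median difference of -0.01. AGL24 (AT4G24540), which promotes flowering together with SOC1, read 5.56, 5.56 and 5.39 in SPT4-R3, against 4.86, 5.14 and 4.92 in wild type, with no overlap. It rose by 0.53 ± 0.0816 (SE, limma adjusted p = 0.000356). AGL18 (AT3G57390), a repressor of flowering, rose by 0.30 ± 0.0520 to 7.40 in SPT4-R3, against 7.11 in wild type (limma adjusted p = 0.000838). AGL30 (AT2G03060), of the MIKC* class known from pollen, read 5.35, 5.05 and 5.26 in SPT4-R3, against 6.04, 5.92 and 6.02 in wild type, and fell by 0.77 ± 0.0786 (limma adjusted p = 1.87e-05). AGL16 (AT3G57230), another repressor of flowering, fell by 0.16 ± 0.0587 (limma adjusted p = 0.0414). The call of AGL16 was lost when SPT4-R3 replicate 1 or 3 or any 1 of the 3 wild-type replicates was left out, and centring on the hybridisation controls turned it to 0.23. The other MIKC* genes AGL65, AGL66, AGL94 and AGL104 did not pass, with differences between -0.12 and 0.05. AGL21 and AGL79 did not pass either (0.03 and 0.05), and AGL21, AGL94 and AGL104 read within or below the trp range on all 6 arrays. AGL79 read above that range only in wild-type replicate 2, at 3.89. Another, dimmer probe set of AGL79 read 3.38 to 3.51 and differed by -0.06, not past the threshold.

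Among flowering signals 4 of 30 genes were measured, and 1 rose, 1 fell and 2 did not pass. SMZ (AT3G54990) and SNZ (AT2G39250) encode related AP2-type repressors of flowering and went opposite ways. SMZ read 7.19, 6.97 and 6.86 in SPT4-R3, against 6.43, 6.64 and 6.47 in wild type, and rose by 0.49 ± 0.0892 (SE, limma adjusted p = 0.00103). SNZ read 6.48, 6.50 and 6.49 in SPT4-R3, against 7.46, 7.39 and 7.44 in wild type, and fell by 0.94 ± 0.0503 (limma adjusted p = 2.04e-07). FD, the partner of the florigen FT at the shoot apex, differed by -0.02 and GIGANTEA (GI), of the photoperiod pathway, by -0.09, neither past the threshold. FD read 4.06, 4.06 and 4.01 in SPT4-R3, against 4.23, 4.13 and 3.83 in wild type, so its signal was near the background. The measured regulators of FLC, FY and LD of the autonomous pathway, differed by 0.16 and -0.15 and did not pass (2 of 24 genes measured, limma adjusted p = 0.106 and 0.0724).

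Of 17 gibberellin genes 4 were measured, and 1 rose, 1 fell and 2 did not pass. The receptor gene GID1A rose by 1.04 ± 0.0595 (SE, limma adjusted p = 3.31e-07) and its relative GID1B fell by 0.19 ± 0.0597 (limma adjusted p = 0.0215). The call of GID1B was lost when replicate 1 or 2 of SPT4-R3 or replicate 1 or 3 of wild type was left out, and it turned to 0.20 with the centring on hybridisation controls. The receptor gene GID1C differed by -0.13 and SLY1, an F-box gene that marks DELLA repressors for removal, by 0.13, neither past the threshold. Leaving out replicate 1 of SPT4-R3 or replicate 1 or 3 of wild type reduced the count of genes that fell over the 5 lists to 2, and the centring on hybridisation controls gave 18 higher and 2 lower. AGL24, AGL18, SMZ and GID1A were higher, and AGL30 and SNZ lower, under each of the alternatives run.

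**Figure D3:**
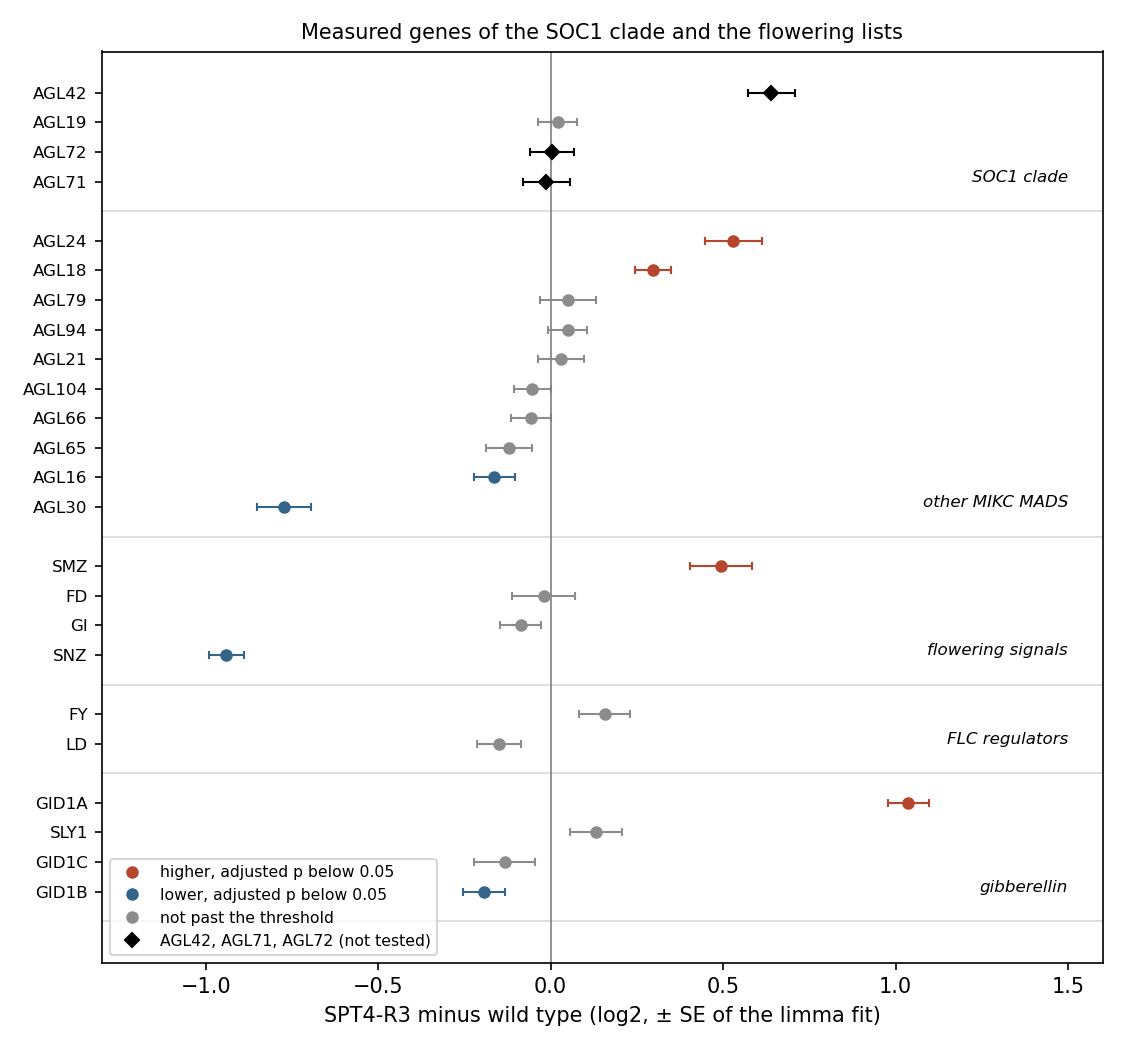
Differences of SPT4-R3 minus wild type (log2, horizontal axis, bars are the SE of the limma fit) for AGL42, AGL71 and AGL72 (diamonds, not tested) and the 21 other measured genes of the 5 lists. AGL42 stands at 0.64, while AGL19, AGL71 and AGL72, the other measured genes of its clade, lie within 0.02 of 0. The means of AGL19, AGL71 and AGL72 are no higher than the trp range. The other lists hold 4 genes that were higher and 4 that were lower.

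AGL42 is known from the root, and its difference was set beside markers of tissues that could differ between harvests. Of 11 root markers 4 were measured and none passed the test, with differences of -0.12 for EXPA7, -0.02 for PYK10, -0.01 for PRX44 and 0.01 for EXPA18 (limma adjusted p of 0.247 to 0.946). Their mean log2 level was 6.46 to 6.51 on SPT4-R3 arrays and 6.49 to 6.56 on wild-type arrays, overlapping between the genotypes. PYK10 raised this mean, at 11.8 in both genotypes, while the genotype means of EXPA7, EXPA18 and PRX44 lay between 4.22 and 5.15. WOX5, PLT1 and PLT2, which mark the root tip where AGL42 is known, were not analysed here. Of 10 shoot meristem markers 2 were measured. CLV3, a stem cell signal, differed by 0.03 and UFO, an F-box gene of the meristem, by -0.06 (limma adjusted p of 0.770 and 0.451), and their mean level was 4.36 to 4.45 in SPT4-R3 and 4.40 to 4.42 in wild type. UFO raised this mean, at 4.73 to 4.92 over the 6 arrays. CLV3 read only 3.86 to 4.07, close to the highest trp value of 3.84, so its signal says little about a small change in transcript. None of 11 flower markers was analysed here. Whether a difference in tissue took part in the AGL42 difference was not tested.

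AGL71 and AGL72 are next to each other in the gene order, and AGL42 lies elsewhere on the same chromosome. Each locus has a gene of the TRM family beside it, TRM25 next to AGL42 and TRM24 next to AGL72. The 5 genes on either side of each of the 3 genes made 20 neighbours, of which 14 had a single-gene probe set. Of these 4 rose, 8 fell and 2 did not pass, or 85.7% called against 49.9% of all probe sets. The 49.9% includes dim probe sets, so it is not a reference matched to the neighbours in signal. With the dimmest 30% of probe sets removed, 5648 of the remaining 15915 were higher and 4808 lower, a larger share called than the 49.9%. Under that filter 4 neighbours were higher and 7 lower, and the neighbour AT5G51900 was too dim to be kept. Whether the neighbours were called more often than other genes of similar signal was not tested.

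The 8 measured neighbours of AGL42 went both ways, 3 higher and 5 lower. AT5G62200 read 9.35, 9.38 and 9.45 in SPT4-R3, against 7.84, 7.86 and 7.83 in wild type, with no overlap, and rose by 1.55 ± 0.0522 (SE, limma adjusted p = 1.07e-08). AT5G62150 rose by 0.44 and PRH75 (AT5G62190), a DEAD-box RNA helicase gene, by 0.15 (limma adjusted p = 0.000483 and 0.0297). TRM25 (AT5G62170), the closest measured gene on 1 side, fell by 0.39 ± 0.0591 (limma adjusted p = 0.000300). With the centring on hybridisation controls TRM25 showed no fall and its call was lost. AT5G62210 fell by 0.71, AT5G62130 fell by 0.45, AT5G62140 fell by 0.33 and CXE20 (AT5G62180) fell by 0.21. The genes directly before AGL42, MIR399c and ZIP12, were not analysed here.

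Around AGL71 and AGL72 6 neighbours were measured, of which 1 rose, 3 fell and 2 did not pass. AT5G51880, directly after AGL71, read 10.07, 9.96 and 10.06 in SPT4-R3, against 9.50, 9.58 and 9.57 in wild type, and rose by 0.48 ± 0.0557 (SE, limma adjusted p = 4.88e-05). AT5G51890, the gene after it, fell by 0.82 (limma adjusted p = 1.75e-06). The genes flanking the dim MADS pair, TRM24 and AT5G51880, read above the trp range on all 6 arrays. TRM24 (AT5G51850), directly before AGL72, fell by 0.23 and AT5G51900 fell by 0.20 (limma adjusted p = 0.0473 and 0.0464). AT5G51900 read 3.59, 3.68 and 3.76 in SPT4-R3, against 3.82, 3.79 and 4.01 in wild type. Only its value in wild-type replicate 3 lay above the trp range, so its signal was near the background. AT5G51830 and AT5G51840 did not pass (-0.08 and 0.06). Without replicate 1 or 2 of SPT4-R3 or replicate 3 of wild type the number of neighbours that fell was 5 in place of 8. The calls of TRM24, AT5G51900, CXE20 and PRH75 were each lost on leaving out 4 or 5 of the 6 arrays in turn. The centring on hybridisation controls gave 6 higher and 2 lower neighbours, with AT5G51890 and AT5G62210 still lower.

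**Figure D4:**
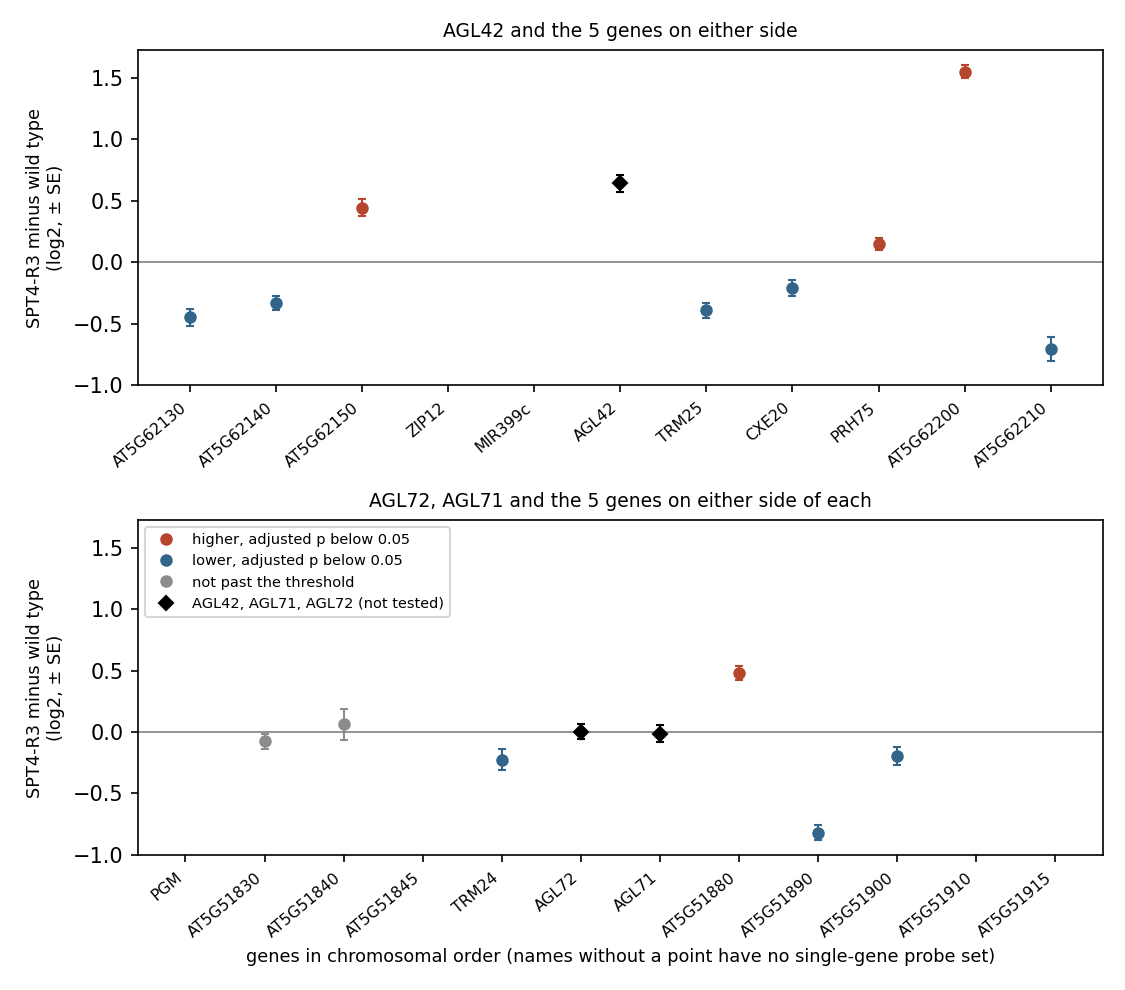
Differences of SPT4-R3 minus wild type (log2, vertical axis, bars are the SE of the limma fit) along the gene order around AGL42 (top) and around AGL72 and AGL71 (bottom). Diamonds are AGL42, AGL71 and AGL72, which were not tested. AGL42 at 0.64 has neighbours between -0.71 and 1.55, and AGL72 and AGL71 lie near 0 between TRM24 at -0.23 and AT5G51880 at 0.48.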

How the data were processed

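The data were log2 signals per probe set and array as deposited by the authors, with 2 decimals. Affymetrix Expression Console was used, per the submitters' processing notes, while the algorithm and any background correction or normalization were not given in the sources used here. Of 22810 probe sets 64 were array controls and 22746 were tested. Of these, 13513 had 1 gene in the annotation table, 503 had several and 8730 had none. Symbols came through the Entrez identifier from a RefSeq gene table (assembly TAIR10.1, 13436 matched), of which only names and the order of genes were used. The brightest probe set stood for a gene. Sequences were not used here.

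The probe sets were fitted with limma 3.58.1 in R 4.3.3 (lmFit, eBayes) on the deposited values, with two-sided tests, p-values adjusted after Benjamini-Hochberg over the 22746 probe sets and a threshold of 0.05. The number of arrays, 3 per genotype, limits the precision. The fit was tested on simulated data.

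The 3 genes and the lists were chosen with earlier results of these data known. Named were the 3 genes, SPT4-1, up to 4 called genes per list with the smallest p (2 where none passed), markers, called neighbours and the 5 profiles most like that of AGL42. Other list genes were named after their values were seen. Alternatives were 4 scalings, a filter on the dimmest 30%, limma's trend and robust options, a replicate block, averaging the probe sets of a gene, and each array left out in turn.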

Additional observations from a re-analysis of the deposited data

How the results depend on the processing

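Quantile normalization and median centring left the differences of AGL42, AGL71 and AGL72 within 1 SD of the replicates. Centring on bioB, bioC and bioD moved them to 1.03, 0.38 and 0.40, and centring on the poly-A controls to 0.79, 0.14 and 0.15, by construction a shift common to all probe sets. With each array left out in turn the differences ran from 0.59 to 0.69 for AGL42, from -0.08 to 0.05 for AGL71 and from -0.04 to 0.06 for AGL72. All 3 genes were below the level at which the dimmest 30% of probe sets were removed, so that filter gave no value for them.

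Over the flowering and MADS lists the bioB, bioC and bioD centring brought the counts to 18 higher and 2 lower genes and the poly-A centring gave 2 lower, against 4 and 4 as reported. For the neighbours the lower count was 2 and 3 under these centrings, against 8. AGL16 (0.23), GID1B (0.20), AT5G62140 (0.06), CXE20 (0.18), TRM24 (0.17) and AT5G51900 (0.20) turned positive under the bioB, bioC and bioD centring. TRM25 and AT5G62130 lost their calls under it, with no difference left for TRM25 and -0.06 for AT5G62130. The poly-A centring cost 7 named genes their calls, TRM25 among them (-0.24). With single arrays left out the list counts ran from 4 to 5 higher and 2 to 4 lower, and the neighbour counts from 3 to 4 higher and 5 to 7 lower.

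Same-numbered arrays did not deviate together, with correlations of -0.24, -0.13 and -0.06 across probe sets, so the replicate number was not taken as pairing. With the replicate block the lists had 4 higher and 3 lower genes, the neighbours 3 higher and 8 lower, and the difference of AGL42 was 0.64 as before. A fit with fewer arrays has less power. Whether the lower counts came from that or from the influence of single arrays was not tested. Signals in, near or below the trp range, those of AGL71 and AGL72 among them, limit what can be seen of small changes.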
